A study of Sus scrofa with 8 samples.

Results

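Matrix proteases, lysosomal cathepsins and the inhibitors that hold them in check were followed in heart muscle of pigs given glial growth factor 2 (GGF2) after a myocardial infarction. The group was taken by gene symbol: matrix metalloproteinases (MMP), the ADAM family of membrane proteases and its secreted ADAMTS branch, tissue inhibitors of metalloproteinases (TIMP), serpins, and cathepsins other than CTSS. It held 45 of the 6765 genes that the array's annotation names by a single symbol, and each gene was read on the brightest of its probe sets. The 45 genes were 8 MMP, 7 ADAM, 3 ADAMTS, 4 TIMP, 15 serpin and 8 cathepsin genes, with 67 probe sets between them.

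The animals were 8 Yorkshire pigs, castrated males less than 1 year old with a mean weight of 54.5 kg. Left ventricular muscle remote from the infarct was sampled in each, and 1 Affymetrix porcine array was run per animal. All 8 animals had had an infarction. GGF2, a neuregulin-1 isoform that acts on muscle cells through ERBB receptors, was infused over 4 weeks at 0.67 mg/kg per infusion in 3 animals (low dose) and at 2.0 mg/kg in 2 animals (high dose), and 3 animals were untreated. The labels give the group names and the amounts apart, and the match of low and high to the amounts follows from the words. The labels name no vehicle infusion and no animal without an infarct. Replicate numbers are only names for the animals. Values are log2 expression values, and group means are given with the SD over 3 untreated, 3 low-dose and 2 high-dose animals.

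As background, MMPs, ADAMTS enzymes and collagenolytic cathepsins cut collagens, proteoglycans and glycoproteins of the extracellular matrix, and ADAMs release growth factors and receptors from the cell surface. TIMPs block metalloproteinases, while most serpins trap serine proteases such as thrombin, plasmin and the plasminogen activators. In the heart after an infarct this system removes and rebuilds matrix, and gelatinases and TIMPs are often used as measures of remodelling.

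The 8 arrays were alike, with correlations between 0.981 and 0.994 across probe sets and array medians between 5.34 and 5.40. All 11 cardiac muscle markers were above background, and their mean stayed within -0.08 and 0.07 of its centre in every animal. Probe sets with a mean below 3.78, the lower quartile of all probe sets, were taken as near background. The gap between the 3' and 5' actin control probe sets, which widens as RNA degrades, ran from 4.88 to 5.26 in untreated, from 5.48 to 6.04 in low-dose and from 4.92 to 5.18 in high-dose animals. The low-dose animals thus stood above all others on this measure, and its part in the low-dose results was not tested. The gap of the GAPDH control probe sets was 1.09 to 1.65 in untreated, 1.32 to 1.62 in low-dose and 1.10 to 1.17 in high-dose animals. Every low-dose animal was thus above both high-dose animals on it too, while the untreated animals overlapped both doses, and its part in the comparison of the doses was not tested. Of the 8 animals, 6 carry neighbouring tag numbers in pairs: untreated replicates 1 and 3, untreated replicate 2 with low-dose replicate 1, and both high-dose animals. What animals of a tag pair share and the high dose cannot be told apart.

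Of the 45 genes, 31 were above background. All 8 cathepsins were, as were 10 of 15 serpins, 5 of 7 ADAM, 2 of 3 ADAMTS, 3 of 4 TIMP and 3 of 8 MMP genes. The genes near background were MMP1, MMP3, MMP7, MMP13, MMP20, ADAM2, ADAMDEC1, ADAMTS20, TIMP4, SERPINA3-2, SERPINA7, SERPINB7, SERPINB11 and SERPIND1. Their differences from untreated lay between -0.28 and 0.23 at the high dose and between -0.22 and 0.16 at the low dose, and at this signal they hold no order. The 5 MMP genes near background lie side by side in the RefSeq annotation of the pig genome (Sscrofa11.1), with between 0 and 2 genes separating neighbours. The 31 genes above background varied more between animals of a group (median SD 0.248) than the 17999 probe sets above background on the array (median SD 0.191).

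The comparison of the high dose with untreated animals asked what the larger dose changed. ADAMTS1, SERPINB2 and CTSC were brighter after the high dose, while MMP2, CTSK, ADAMTS6, SERPINF1 and SERPINE2 were dimmer, each by more than 0.5 on the log2 scale. These 8 of 45 genes (17.8%) compare with 6.86% of all probe sets past that size. Of the 6765 named genes, read like the members on their brightest probe set, 7.92% were past it. No member passed an adjusted p of 0.05 in limma (0 of 45, smallest adjusted p = 0.384), and 0% of all 23999 probe sets did. At an unadjusted p under 0.05 stood 5 of 45 members (11.1%), against 7.97% of all probe sets and 9.56% of the named genes. ADAMTS1 and SERPINA5 were the higher ones, and ADAMTS6, MMP2 and CTSK the lower ones. Leaving out single animals moved that count to 3 (untreated replicate 1), 12 (untreated replicate 3), 9 (low-dose replicate 2), 2 (high-dose replicate 1) or 3 (high-dose replicate 2). Both high-dose animals lay outside the untreated range in 12 members, 7 above and 5 below, and 26.6% of all probe sets were separated in the same way. Over the group 19 genes were higher and 26 lower, with a median difference of -0.04 beside 0.01 for all probe sets.

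**Figure D1:**
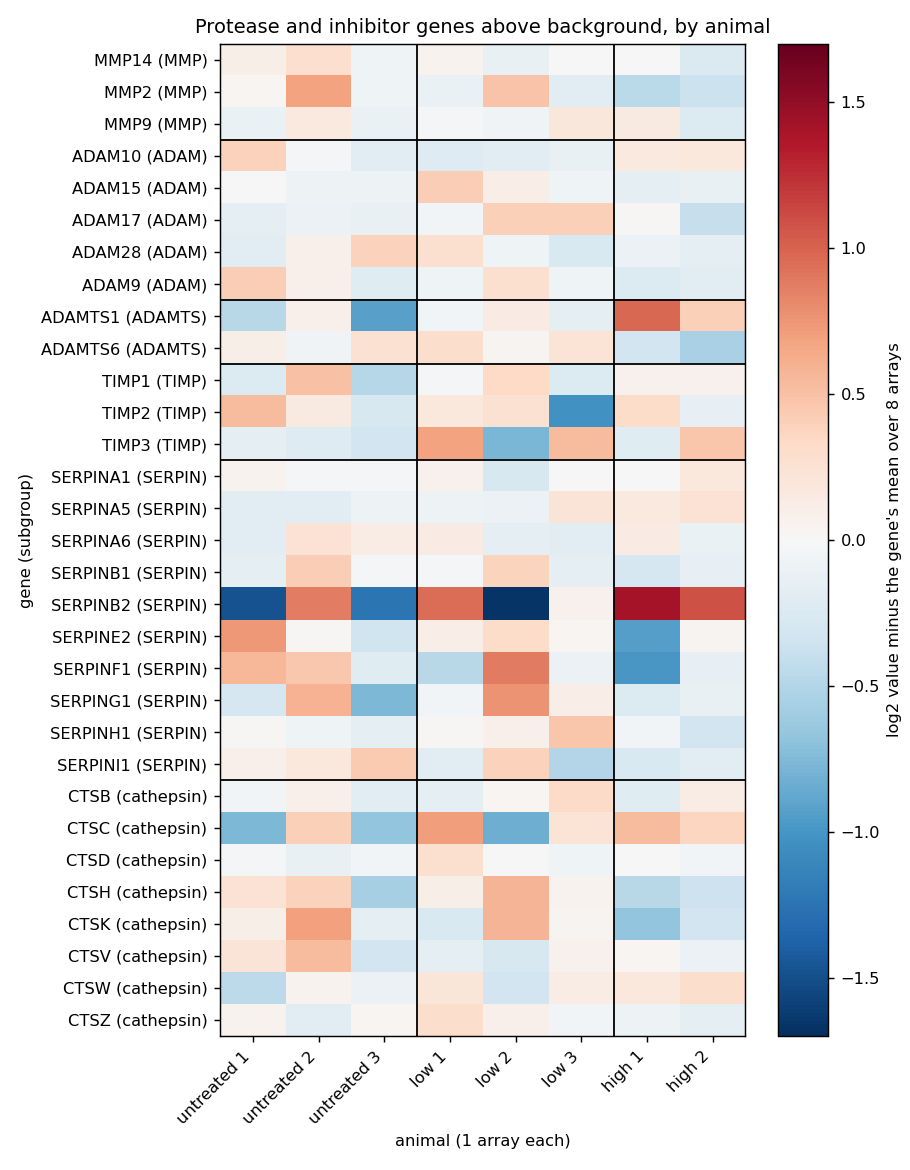
Heat map of the 31 genes above background (rows, by family) in the 8 animals (columns). Colour gives the log2 value minus the gene's mean over the 8 arrays. SERPINB2 and CTSC are low in untreated replicates 1 and 3 and low-dose replicate 2, and ADAMTS1 is highest in the high-dose animals.

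Among the matrix metalloproteinases, MMP2 (gelatinase A, which degrades denatured and basement membrane collagen) was the one that separated the high dose from the other groups. MMP2 read 7.08, 7.74 and 6.99 in the untreated animals, 6.94, 7.54 and 6.88 at the low dose, and 6.60 and 6.68 at the high dose. Both high-dose animals were lower than every other animal. The difference from untreated was -0.63 ± 0.26 (SE), or 0.647 of the untreated level, with a limma adjusted p of 0.601. MMP2 lost its place under an unadjusted p of 0.05 without untreated replicate 2, low-dose replicate 1 or either high-dose animal. The tag pair that crosses groups, untreated replicate 2 and low-dose replicate 1, also bore on it: with a term for that pair the difference was -0.56 and without the pair -0.39, neither under that threshold. MMP14, the membrane-bound enzyme that activates pro-MMP2, read 5.79, 5.98 and 5.61 in untreated, 5.74, 5.56 and 5.67 in low-dose, and 5.69 and 5.44 in high-dose animals. The groups overlapped, and the high-dose difference was -0.23 ± 0.15 (limma adjusted p = 0.762). MMP9 (gelatinase B, carried largely by leukocytes) read 4.26, 4.54 and 4.26 in untreated, 4.36, 4.32 and 4.57 in low-dose, and 4.53 and 4.14 in high-dose animals, a high-dose difference of -0.02 ± 0.16 (limma adjusted p = 0.991). In MMP9 the high-dose animals thus lay on either side of the untreated mean.

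The secreted ADAMTS proteases held the 2 members with the smallest p at the high dose, and they stood in opposite directions. ADAMTS1, which cleaves the proteoglycans versican and aggrecan, read 9.59, 10.16 and 9.14 in untreated, 10.02, 10.20 and 9.91 in low-dose, and 11.05 and 10.47 in high-dose animals. Both high-dose values were above all 6 others. Its means were 9.63 ± 0.51, 10.04 ± 0.15 and 10.76 ± 0.41, a high-dose difference of 1.13 ± 0.29 (SE, 95% interval 0.47 to 1.78), or 2.18-fold, with a limma adjusted p of 0.384. Its place under an unadjusted p of 0.05 was kept in 18 of 18 alternative fits, with differences from 0.84 to 1.42. A further ADAMTS1 probe set gave 0.95 ± 0.33 at the high dose and 0.40 at the low dose.

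ADAMTS6, a related protease needed for normal heart development, read 5.94, 5.78 and 6.09 in untreated, 6.14, 5.88 and 6.07 in low-dose, and 5.51 and 5.28 in high-dose animals. Here both high-dose animals were below all 6 others, which shared one range. The means of 5.94 ± 0.15, 6.03 ± 0.13 and 5.40 ± 0.16 gave a high-dose difference of -0.54 ± 0.14 (95% interval -0.87 to -0.21), or 0.687 of the untreated level, with a limma adjusted p of 0.4. It stayed under an unadjusted p of 0.05 in 17 of 18 alternatives, and without high-dose replicate 2 it was -0.43 and did not.

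**Figure D2:**
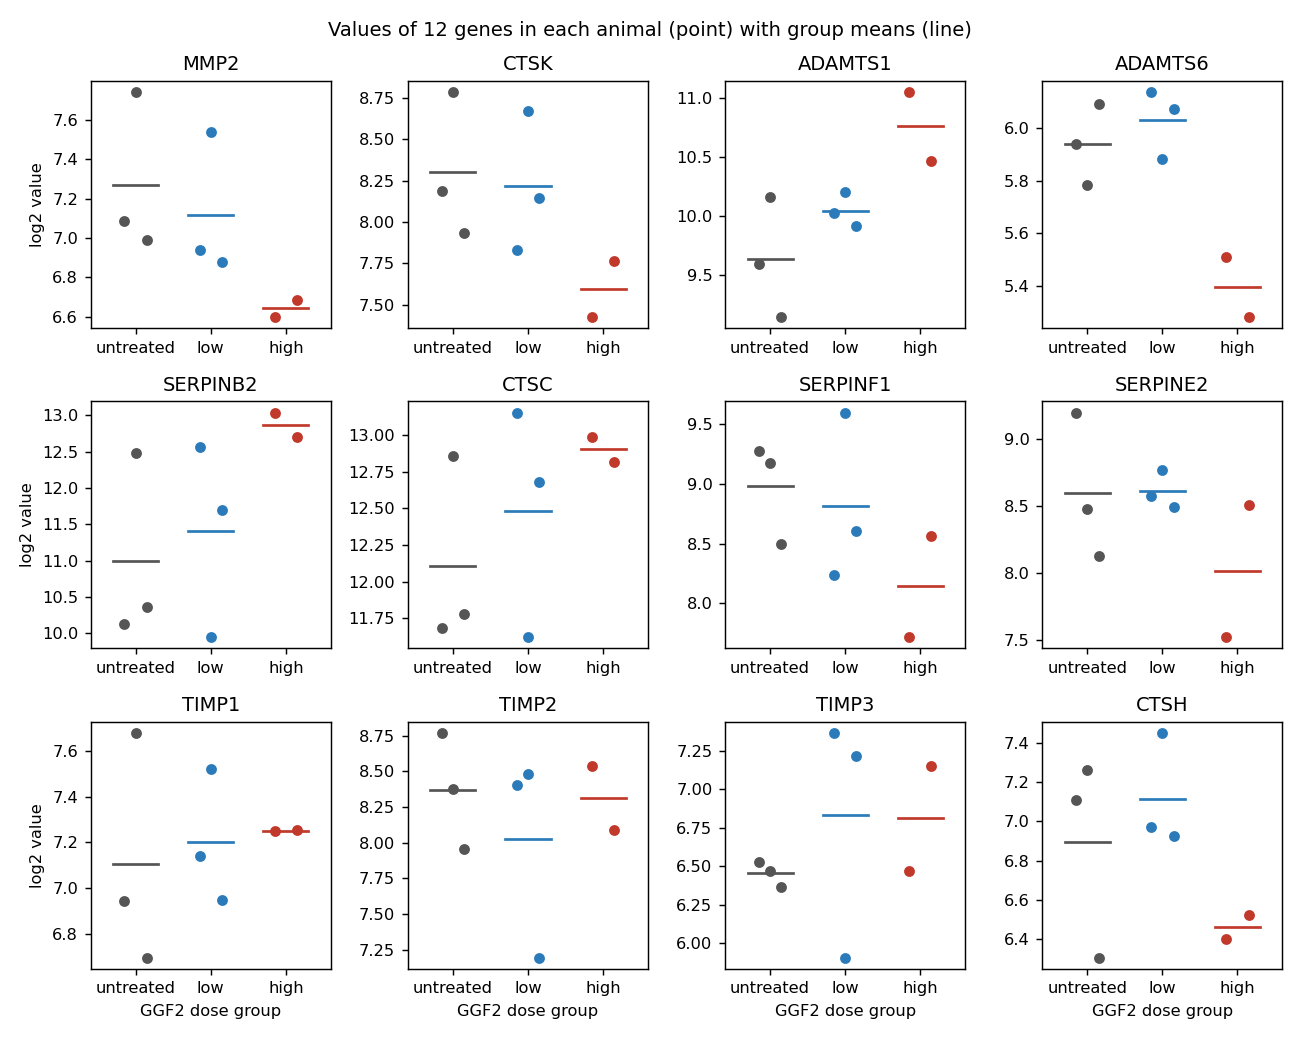
Log2 values of 12 genes in each animal (points) by dose group, with group means (lines); each panel has its own vertical axis, which does not start at 0. High-dose points lie outside the range of both other groups in MMP2, CTSK, ADAMTS1, ADAMTS6 and SERPINB2, and within the untreated range in TIMP1, TIMP2 and CTSH.

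The membrane ADAMs differed from untreated by less than 0.40 in either direction at both doses. ADAM17 is the sheddase that releases tumour necrosis factor and ERBB ligands from their membrane-bound precursors. It read 5.05, 5.12 and 5.10 in untreated, 5.17, 5.62 and 5.62 in low-dose, and 5.24 and 4.83 in high-dose animals. The 3 untreated values lay close together, all low-dose values were above them, and the high-dose animals lay on either side. ADAM9, which also cuts surface proteins, read 7.70, 7.37 and 7.07 in untreated, 7.21, 7.55 and 7.21 in low-dose, and 7.04 and 7.10 in high-dose animals, a high-dose difference of -0.31 ± 0.19 (limma adjusted p = 0.756). One high-dose animal lay just below the untreated range and the other just inside it. Of the other ADAM9 probe sets above background, one gave -0.23 and a dimmer one 0.12.

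ADAM28, a family member known from lymphocytes, read 3.95, 4.21 and 4.51 in untreated, 4.40, 4.06 and 3.87 in low-dose, and 4.03 and 3.97 in high-dose animals, with overlapping groups and a high-dose difference of -0.22 ± 0.20. ADAM10, the sheddase of Notch and cadherins, read 4.44, 4.02 and 3.85 in untreated, 3.83, 3.87 and 3.91 in low-dose, and 4.21 and 4.23 in high-dose animals. The wide untreated range took in nearly all other values. ADAM15 read 6.46, 6.37 and 6.38 in untreated, 6.89, 6.58 and 6.39 in low-dose, and 6.29 and 6.34 in high-dose animals, so the high-dose values lay below the untreated ones, but by only -0.09 ± 0.15 in the means (limma adjusted p = 0.947).

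No TIMP above background had dose groups that separated on its brightest probe set. TIMP1, the inducible inhibitor often measured in fibrosis, read 6.95, 7.68 and 6.70 in untreated, 7.14, 7.52 and 6.95 in low-dose, and 7.25 and 7.25 in high-dose animals. The high-dose animals sat in the middle of the untreated range, and the difference of 0.14 ± 0.28 had a 95% interval from -0.49 to 0.78 (limma adjusted p = 0.953). TIMP2, which inhibits MMP2 and also takes part in its activation, read 8.77, 8.38 and 7.96 in untreated, 8.40, 8.48 and 7.20 in low-dose, and 8.53 and 8.09 in high-dose animals. Low-dose replicate 3 was lowest, and the high-dose difference of -0.06 ± 0.39 had a 95% interval from -0.95 to 0.84 (limma adjusted p = 0.99). TIMP3, the matrix-bound inhibitor that also blocks ADAM17, read 6.53, 6.47 and 6.36 in untreated, 7.37, 5.90 and 7.22 in low-dose, and 6.47 and 7.15 in high-dose animals. The untreated animals were close together and the treated ones spread widely. The high-dose difference of TIMP3 was 0.36 ± 0.40 (limma adjusted p = 0.892), and a dimmer TIMP3 probe set, on which both high-dose animals (6.01 and 6.29) were above the untreated ones (at most 5.55), gave 0.82 ± 0.34 (limma adjusted p = 0.595). TIMP4, an inhibitor abundant in the heart in other species, was near background here, at 3.47, 3.44 and 3.66 in untreated, 3.34, 3.37 and 3.42 in low-dose, and 3.45 and 3.71 in high-dose animals. Its low-dose animals were below all others, at a signal where values hold no order. The intervals of TIMP1 and TIMP2 leave room for differences of either sign, so the data do not show that their levels were equal.

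The serpins held the largest difference of the whole group and the largest spread. SERPINB2 (plasminogen activator inhibitor type 2, which blocks urokinase) read 10.13, 12.48 and 10.37 in untreated, 12.57, 9.95 and 11.70 in low-dose, and 13.04 and 12.70 in high-dose animals. Both high-dose animals were above all others, but untreated replicate 2 and low-dose replicate 1 came close to them. Means of 11.00 ± 1.29, 11.40 ± 1.34 and 12.87 ± 0.24 gave a high-dose difference of 1.87 ± 0.83 (95% interval -0.03 to 3.77), or 3.66-fold, with a limma adjusted p of 0.626. Without untreated replicate 2 the difference was 2.62, and without untreated replicate 1 it was 1.44. With a term for the tag pair of untreated replicate 2 and low-dose replicate 1 it was 2.54, and without that pair 2.62, both under an unadjusted p of 0.05, which the main value was not. The probe set carries this name by the array's annotation alone.

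SERPINF1, SERPINE2 and SERPINI1 were below the untreated range in at least 1 high-dose animal. SERPINF1 (pigment epithelium-derived factor, which inhibits vessel growth rather than a protease) read 9.28, 9.17 and 8.50 in untreated, 8.23, 9.59 and 8.61 in low-dose, and 7.72 and 8.57 in high-dose animals. High-dose replicate 1 was lowest and replicate 2 lay within the untreated range. The difference was -0.84 ± 0.42 (limma adjusted p = 0.675), -0.42 without high-dose replicate 1 and -1.26 without high-dose replicate 2. SERPINE2 (protease nexin 1, an inhibitor of thrombin and plasminogen activators) read 9.20, 8.48 and 8.13 in untreated, 8.57, 8.77 and 8.49 in low-dose, and 7.52 and 8.51 in high-dose animals. As for SERPINF1, only high-dose replicate 1 lay below the untreated range, and the difference was -0.58 ± 0.35 (limma adjusted p = 0.73). It was -0.09 without high-dose replicate 1, -1.08 without high-dose replicate 2 and -0.29 without untreated replicate 1. SERPINI1 (neuroserpin, an inhibitor of tissue plasminogen activator) read 4.19, 4.28 and 4.54 in untreated, 3.92, 4.49 and 3.61 in low-dose, and 3.85 and 3.92 in high-dose animals. Its high-dose animals were both below the untreated ones, with a difference of -0.46 ± 0.24 (limma adjusted p = 0.697).

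SERPINA5 (protein C inhibitor) read 3.61, 3.60 and 3.70 in untreated, 3.70, 3.69 and 4.00 in low-dose, and 3.95 and 4.03 in high-dose animals, a high-dose difference of 0.36 ± 0.13 (limma adjusted p = 0.536). It lay only just above background. Without untreated replicate 1 or 2 or either high-dose animal, SERPINA5 was not under an unadjusted p of 0.05, and over the mean of its probe sets the difference was 0.21. SERPING1 (the inhibitor of complement C1) read 8.36, 9.24 and 7.87 in untreated, 8.59, 9.41 and 8.76 in low-dose, and 8.41 and 8.51 in high-dose animals, and its high-dose difference was -0.03 ± 0.38 (limma adjusted p = 0.993). SERPINA1, SERPINA6, SERPINB1 and SERPINH1, the other serpins above background, differed from untreated by between -0.29 and 0.09 at the high dose.

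Cathepsins, the acid proteases of lysosomes, were all bright enough to measure and divided between directions. CTSK, a cathepsin that cuts fibrillar collagen, read 8.19, 8.79 and 7.93 in untreated, 7.83, 8.67 and 8.15 in low-dose, and 7.43 and 7.76 in high-dose animals. Both high-dose animals were the lowest of the 8. The difference of -0.71 ± 0.30, or 0.613 of the untreated level, had a limma adjusted p of 0.606. CTSK was not under an unadjusted p of 0.05 without untreated replicate 1 or 2, low-dose replicate 3 or either high-dose animal. With a term for the tag pair of untreated replicate 2 and low-dose replicate 1 the difference was -0.68, and without that pair -0.46, again not under it.

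CTSC (dipeptidyl peptidase 1, which activates granule proteases of immune cells) read 11.68, 12.86 and 11.78 in untreated, 13.15, 11.62 and 12.68 in low-dose, and 12.99 and 12.81 in high-dose animals. Here the order of animals was much like that of SERPINB2, with untreated replicates 1 and 3 and low-dose replicate 2 the lowest. The high-dose difference was 0.80 ± 0.46 (limma adjusted p = 0.727), or 1.17 without untreated replicate 2. The CTSC probe sets did not all rank the animals alike. One with a mean of 10.63 read 9.91, 11.24 and 9.55 in untreated, 11.18, 9.63 and 10.92 in low-dose, and 11.44 and 11.20 in high-dose animals. Another with a mean of 9.89 read 10.04, 9.75 and 9.84 in untreated, 9.52, 9.63 and 10.07 in low-dose, and 10.14 and 10.14 in high-dose animals. The first separated the same 3 low animals, by over 1 log2 unit, and the second spanned far less.

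CTSH, an aminopeptidase of lysosomes, read 7.11, 7.26 and 6.31 in untreated, 6.97, 7.45 and 6.92 in low-dose, and 6.40 and 6.52 in high-dose animals. High-dose animals were below all low-dose ones, while untreated replicate 3 was the lowest of all, and the high-dose difference from untreated was -0.43 ± 0.28 (limma adjusted p = 0.765). CTSW, a cathepsin of cytotoxic lymphocytes, read 4.33, 4.83 and 4.67 in untreated, 4.97, 4.45 and 4.91 in low-dose, and 4.96 and 5.08 in high-dose animals, a high-dose difference of 0.41 ± 0.20 (limma adjusted p = 0.665). The mean of 10 lymphocyte markers, 8 of them above background, stayed within -0.10 and 0.09 of its centre in every animal. The cytotoxic cell markers GZMA, GZMB and NKG7 of that list were not measured. The part of lymphocytes in the CTSW values was not tested. CTSV, whose entry in the RefSeq table also carries the older name CTSL, read 9.67, 9.99 and 9.12 in untreated, 9.29, 9.18 and 9.51 in low-dose, and 9.48 and 9.34 in high-dose animals, with a high-dose difference of -0.18 ± 0.23. CTSB, CTSD and CTSZ, broadly expressed lysosomal proteases that lay outside the naming rule, differed from untreated by 0.00, 0.05 and -0.10 at the high dose and by 0.11, 0.13 and 0.14 at the low dose.

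Family medians over all members lay close to that of the array at the high dose. Median differences were -0.05 for the MMP, -0.07 for the ADAM, 0.05 for the ADAMTS, 0.10 for the TIMP, -0.04 for the serpin and -0.05 for the cathepsin genes, beside 0.01 over all probe sets. The ADAMTS median was the value of ADAMTS20, a gene near background. For the 2 ADAMTS genes above background the median was 0.29, with 1 higher and 1 lower. For the 3 MMP genes above background the median was -0.23, with all 3 lower. Above background the medians of the other families lay between -0.09 and 0.14.

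**Figure D3:**
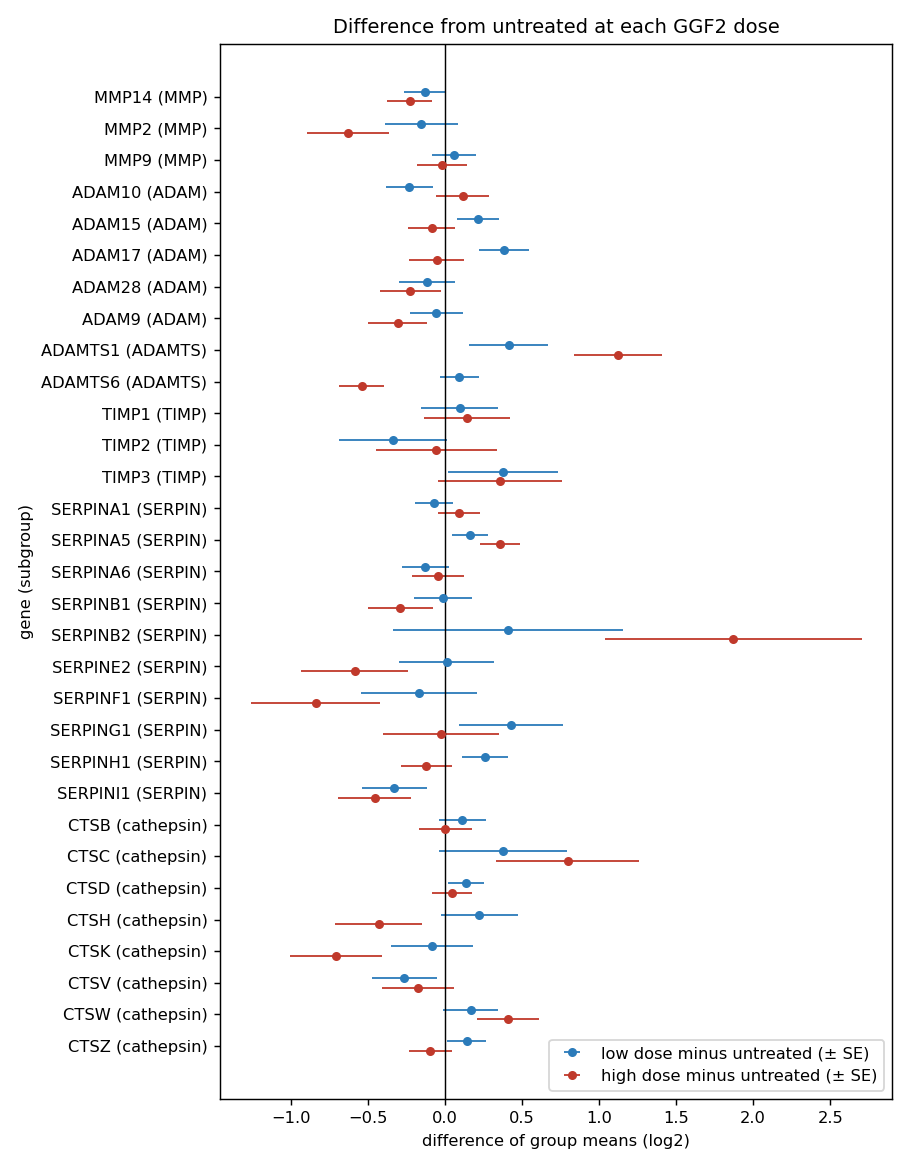
Difference of each dose group's mean log2 value from the untreated mean (points, with bars of 1 SE) for the 31 genes above background, by family. ADAMTS1 and SERPINB2 lie farthest to the right at the high dose and SERPINF1 and CTSK farthest to the left; the low-dose points lie between -0.34 and 0.43.

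Genes that act beside these proteases were read from lists of the same pathway. Of 22 measured matrix substrates and regulators, 16 were lower and 6 higher at the high dose, with a median of -0.39. None passed an adjusted p of 0.05 in limma (smallest 0.104). At an unadjusted p under 0.05, 9 of the 22 (40.9%) were lower, against 7.97% of all probe sets in either direction. They included substrates of the proteases above: versican (VCAN) differed by -1.60 ± 0.41 (limma adjusted p = 0.384), fibrillin 1 (FBN1) by -1.39 ± 0.22 (0.141) and fibronectin (FN1) by -1.12 ± 0.36 (0.467). At the low dose the same list had a median of -0.05. Of 17 activators and receptors of pericellular proteolysis, 8 were higher and 9 lower (median -0.03), with a smallest limma adjusted p of 0.337. At an unadjusted p under 0.05, 3 (17.6%) were lower. Those 3 were the fibroblast surface protease FAP (-0.84 ± 0.19), the secreted serine protease HTRA1 (-0.76 ± 0.29) and the thrombin receptor F2R (-0.57 ± 0.22). The urokinase gene PLAU differed by 0.13 ± 0.27 and the tissue plasminogen activator gene PLAT by 0.15 ± 0.35.

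Of 21 inhibitors outside the serpin and TIMP families, 9 were higher and 12 lower (median -0.02). SPOCK3, a proteoglycan that inhibits MMP activation, was the one (4.76%) at an unadjusted p under 0.05, with -1.65 ± 0.60. The smallest limma adjusted p of these inhibitors was 0.532, and 7.97% of all probe sets were under that unadjusted threshold. The 17 lysosomal enzymes and membrane proteins gave 9 higher and 8 lower (median 0.01). Of these, 3 (17.6%) were lower at an unadjusted p under 0.05, namely the hydrolases GLB1 (-0.98 ± 0.30) and GUSB (-0.76 ± 0.20) and the membrane protein LAMP2 (-0.37 ± 0.15). The smallest limma adjusted p among the lysosomal genes was 0.394.

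Some of the proteases and inhibitors shared their lowest animals with marker genes of other kinds. The mean of 14 immediate early genes, transcripts such as FOS and EGR1 that appear within minutes of a stimulus and all above background here, was -1.11, 0.40 and -1.05 in untreated, 0.51, -1.38 and -0.12 in low-dose, and 1.54 and 1.21 in high-dose animals, as log2 distance from its centre. The same 3 animals, untreated replicates 1 and 3 and low-dose replicate 2, were lowest for SERPINB2, for CTSC and for these genes. They were also lowest for CTSW, at 4.33, 4.67 and 4.45, with the next animal at 4.83. In SERPINB2 the animals of a tag pair also lay close together, at 10.13 and 10.37 in untreated replicates 1 and 3, and at 12.48 and 12.57 in untreated replicate 2 and low-dose replicate 1. Each of the 14 immediate early transcripts had a larger mean at the high dose than in untreated animals. At an unadjusted p under 0.05 stood 10 of them (71.4%), against 7.97% of all probe sets. None of the 14 passed an adjusted p of 0.05 in limma (smallest 0.26). For ADAMTS1 the lowest animals were untreated replicates 1 and 3, while low-dose replicate 2 was the highest of its group. The part of the immediate early genes in these differences was not tested.

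The mean of 9 fibroblast markers, all above background, was 0.28, 0.49 and -0.02 in untreated, 0.06, 0.36 and 0.16 in low-dose, and -0.90 and -0.42 in high-dose animals. MMP2, CTSK, SERPINF1 and SERPINE2, which fibroblasts are known to make, were lowest in high-dose replicate 1, as this mean was. They were picked from the members dimmer by more than 0.5 at the high dose, so low values in high-dose animals were part of that choice. Other members stood differently. ADAMTS6, also dimmer by more than 0.5, was lowest in high-dose replicate 2, at 5.28 against 5.51 in high-dose replicate 1. MMP14 was lowest in high-dose replicate 2 too, and TIMP1, TIMP2 and TIMP3 differed by 0.14, -0.06 and 0.36 at the high dose. In SERPINE2, untreated replicate 2, highest on the fibroblast mean, read 8.48, and high-dose replicate 2 (8.51) lay within the untreated range. Of the 9 fibroblast markers 8 were lower at the high dose. At an unadjusted p under 0.05 stood 7 of the lower ones (77.8% of the 9), against 7.97% of all probe sets. Their smallest limma adjusted p was 0.104. DCN, LUM, COL1A2 and POSTN are also in the matrix list above and FAP is among the activators, so these lists are not independent results. In muscle read as bulk tissue, fewer fibroblasts and less of these RNAs in each fibroblast cannot be told apart. The mean of 13 macrophage markers, 12 of them above background, ran from -0.04 to 0.24 in untreated, from -0.09 to 0.30 in low-dose and from -0.31 to -0.24 in high-dose animals. The part of either cell type in the protease differences was not tested.

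**Figure D4:**
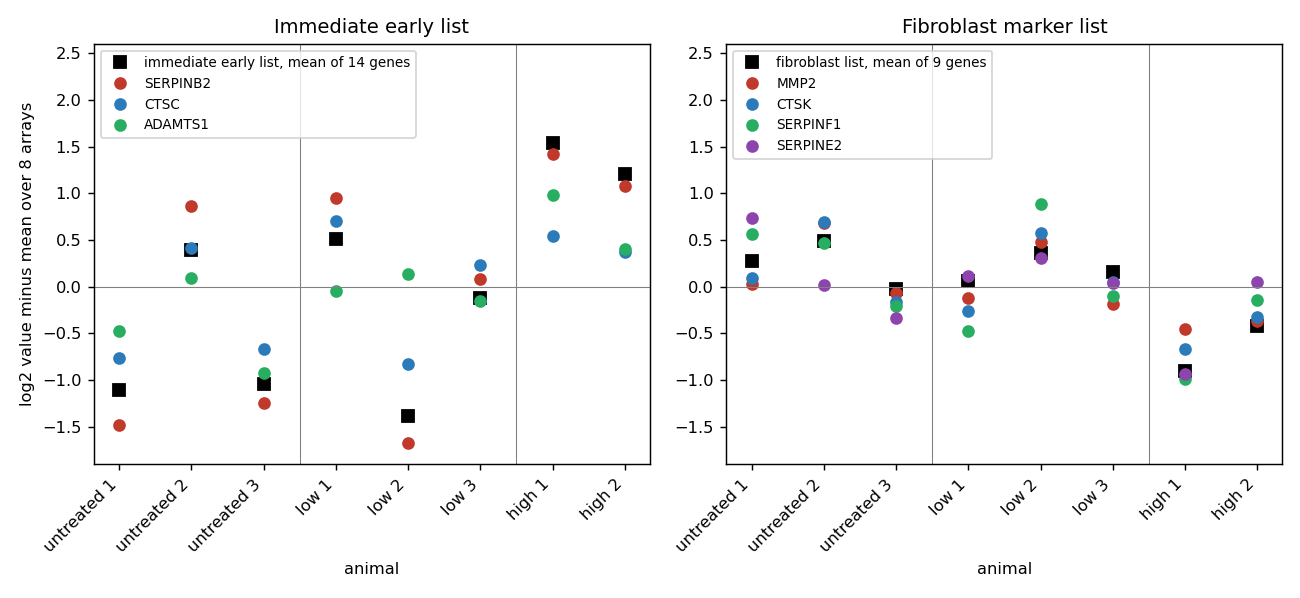
Log2 values minus the mean over 8 arrays (vertical axis) by animal: left, the mean of 14 immediate early genes (squares) with SERPINB2, CTSC and ADAMTS1 (circles); right, the mean of 9 fibroblast markers (squares) with MMP2, CTSK, SERPINF1 and SERPINE2 (circles). Untreated replicates 1 and 3 and low-dose replicate 2 are low on the left for the list, SERPINB2 and CTSC; the fibroblast mean is lowest in both high-dose animals, at -0.90 and -0.42.

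The comparison of the low dose with untreated animals asked what the smaller dose changed, and it uses the same 3 untreated animals as the high-dose comparison. No member differed by more than 0.5, against 2.75% of all probe sets, and differences ran from -0.34 for TIMP2 to 0.43 for SERPING1. No member passed an adjusted p of 0.05 in limma (0 of 45, smallest adjusted p = 0.998), and neither did any other probe set (0%). ADAM17 alone was under an unadjusted p of 0.05, 1 of 45 members or 2.22%, against 4.5% of all probe sets. Its means were 5.09 ± 0.03 in untreated and 5.47 ± 0.26 in low-dose animals, a difference of 0.38 ± 0.16 (95% interval 0.02 to 0.75). A dimmer ADAM17 probe set gave -0.07, and ADAM17 was not under that threshold without any 1 of the untreated animals or without low-dose replicate 2 or 3. Leaving out single animals moved the count of members to 0 (untreated replicate 1), 2 (untreated replicate 2, and also untreated replicate 3) or 3 (low-dose replicate 2). Groups were separated in 4 members, 2 above and 2 below, beside 9.1% of all probe sets.

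Besides ADAM17, the genes named by the rule with the largest low-dose differences were SERPING1 (0.43 ± 0.34), ADAMTS1 (0.41 ± 0.26), SERPINB2 (0.41 ± 0.75), TIMP3 (0.38 ± 0.36) and CTSC (0.38 ± 0.42), and on the lower side TIMP2 (-0.34 ± 0.35), SERPINI1 (-0.33 ± 0.21), CTSV (-0.26 ± 0.21) and ADAM10 (-0.23 ± 0.15). Each low-dose group overlapped the untreated one in these 9 genes. The CTSC probe set with a mean of 9.89 gave a low-dose difference of -0.13. Single animals decided several of the values: without low-dose replicate 1 SERPINB2 was -0.17, CTSC 0.04 and TIMP3 0.11, and without low-dose replicate 3 TIMP2 was 0.07 and SERPINI1 -0.13. Without untreated replicate 3 ADAMTS1 was 0.17 and SERPING1 0.12, without untreated replicate 1 ADAM10 was -0.06, and without untreated replicate 2 CTSV was -0.06. Among all 45 genes 25 were higher and 20 lower, with a median of 0.06 against 0.01 over all probe sets. The low-dose medians were 0.06 for MMP, -0.06 for ADAM, 0.12 for ADAMTS, -0.03 for TIMP, -0.01 for serpin and 0.14 for cathepsin genes. Of the pathway genes, the coagulation starter F3 differed by -1.14 at the low dose and by 0.98 at the high dose.

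The direct comparison of the doses gave 4 members under an unadjusted p of 0.05 (8.89%, against 10.2% of all probe sets). None passed an adjusted p of 0.05 (smallest adjusted p in limma 0.253), while 6 probe sets of all tested did (0.025%). ADAMTS6 was lower at the high dose by -0.63 ± 0.14 (limma adjusted p = 0.253), and this stayed under an unadjusted p of 0.05 in 18 of 18 alternatives. ADAMTS1 was higher by 0.71 ± 0.29 (limma adjusted p = 0.448), or 0.42 without high-dose replicate 1. CTSH was lower by -0.65 ± 0.28 (limma adjusted p = 0.479) and ADAM17 by -0.44 ± 0.18 (limma adjusted p = 0.464). A dimmer ADAM17 probe set above background gave 0.04 between the doses. Over the mean of its probe sets ADAM17 was -0.18 and not under an unadjusted p of 0.05. ADAMTS1 kept its place in 12, CTSH in 9 and ADAM17 in 7 of the alternatives run for each. It was lost for ADAMTS1 without untreated replicate 1, low-dose replicates 1 or 3, or high-dose replicate 1. For CTSH it was lost without untreated replicate 1, low-dose replicates 1 or 2, or either high-dose animal, and for ADAM17 without any 1 untreated animal, low-dose replicates 2 or 3, or high-dose replicate 2. The count was 2 without untreated replicate 1 or low-dose replicate 2. SERPINB2 differed by 1.46 ± 0.83 and CTSK by -0.62 ± 0.30. SERPINH1, the collagen chaperone of the endoplasmic reticulum, singled out after its values were seen, read 8.33, 8.24 and 8.15 in untreated, 8.33, 8.39 and 8.79 in low-dose, and 8.27 and 7.98 in high-dose animals, a difference between the doses of -0.38 ± 0.17 (limma adjusted p = 0.49). High-dose animals lay above all low-dose animals in 6 members and below them in 10, and 26.2% of all probe sets were separated. Over the 45 genes 20 were higher and 25 lower, with a median of -0.07 against 0.01 over all probe sets.

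Taking the mean of both doses against untreated, 2 of 45 members (4.44%) were under an unadjusted p of 0.05, beside 4.83% of all probe sets. They were ADAMTS1, with 0.77, and SERPINA5, with 0.26 (limma adjusted p = 0.956 for both). ADAMTS1 kept this place in 18 of 18 alternatives and SERPINA5 in 7 of 17, losing it without any 1 of the untreated animals, low-dose replicate 3 or either high-dose animal. With 1 animal left out the count became 1 (untreated replicate 1, low-dose replicate 3 or either high-dose animal), 6 (untreated replicate 2), 4 (untreated replicate 3) or 11 (low-dose replicate 2). No member (0%) passed an adjusted p of 0.05 in limma, nor did any probe set. In 0 of 45 members did all 5 treated animals lie on one side of the untreated ones, compared with 2.75% of all probe sets. The group was 24 higher and 21 lower, with a median of 0.01, equal to that of all probe sets.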

How the data were processed

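The values are log2 expression levels of 24123 probe sets as deposited by the authors, who used RMA and Partek 6.6 per the submitters' processing notes. No further setting is named there. RMA equalises the arrays' distributions, so a shift shared by most genes is removed. The 124 control probe sets were left out and 23999 tested. limma 3.58.1 in R 4.3.3 fitted 1 mean per group to all 8 arrays, two-sided, with Benjamini-Hochberg adjustment over all probe sets tested. The fit was tested on simulated data. Each array comes from its own pig per the labels, so p-values measure the spread between animals. Arrays carry no read depth, and their number limits the precision. Symbols came from the platform annotation: 10069 probe sets had 1, 198 several and 13732 none.

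The genes and lists were chosen with earlier results of these data known. Named were all TIMPs and, above background, in each other family up to 5 genes by high-dose and up to 3 by low-dose difference, any under an unadjusted p of 0.01 and the brightest. Other probe sets of a named gene are given where they differ in sign; some more, and the single pathway genes, were picked after their values were seen. Alternatives were other variance priors, array weights, a filter on dim probe sets, other scalings, fits of only the groups compared, averaging over probe sets of a gene, and leaving out animals or adding a term for the tag pair that crosses groups.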

Additional observations from a re-analysis of the deposited data

Results flagged for a closer look

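Only the 25 named genes were searched here. ADAM10 and CTSH were flagged because every low-dose animal lay on one side of the untreated mean and every high-dose animal on the other. ADAMDEC1 and SERPINA7, near background and outside the search, had the same pattern. How often other probe sets have it was not counted. For ADAM10 the low-dose difference from untreated was -0.23 and the high-dose difference 0.11, so the doses differed by 0.35 (limma adjusted p = 0.544). For CTSH the values were 0.22 and -0.43, a difference between the doses of -0.65 (limma adjusted p = 0.479). Neither difference between the doses passed the adjusted threshold. With groups of 2 or 3 animals, no search was made within groups for a single animal that stands apart.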

How the results depend on the processing

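No member passed an adjusted p of 0.05 in any of the 4 comparisons under any of the 18 alternatives, and no named gene reversed as a called value. Probe sets under an adjusted p of 0.05 at the high dose numbered 0, and 4 with an intensity trend, 7 with a robust prior, 13 with array weights, 3 after median centring, 9 after renewed quantile normalization, 2 with only the groups compared, 8 when probe sets of a gene were averaged, 70 with a term for the tag pair that crosses groups (low-dose replicate 1 with untreated replicate 2) and 55 without that pair; leaving out 1 animal gave 0 to 19. Without that pair the count was 1 at the low dose and 1 for any dose. Between the doses the count of 6 became 10 with array weights, 1 with dim probe sets left out, 0 with only the groups compared, 25 with the tag term and 12 without that pair, and 0 to 7 with 1 animal left out. Members under an unadjusted p of 0.05 at the high dose went from 5 to 9 with array weights, 3 after quantile normalization and 8 with only the groups compared, and to between 2 and 12 with 1 animal left out. At the low dose the count of 1 became 0 with dim probe sets left out, after either rescaling and with the mean of probe sets, 3 without the tag pair, and 0 to 3 with 1 animal left out. Between the doses the count of 4 became 2 with dim probe sets left out, 2 after median centring, 1 after quantile normalization, 10 without the tag pair, and 2 to 5 with 1 animal left out. For any dose the count of 2 became 1 with dim probe sets left out, with only the groups compared and with the mean of probe sets, 4 with the tag term, 5 without the tag pair, and 1 to 11 with 1 animal left out. Leaving out dim probe sets keeps fewer genes: 7 higher and 15 lower at the high dose, 14 and 8 at the low dose, 6 and 16 between the doses (median -0.24) and 11 and 11 for any dose. The cause of the other shifts was not tested. No alternative covered the tag pairs that lie within the untreated or the high-dose group. No paired analysis was possible, since each animal was in 1 treatment group and gave 1 array.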
